A study of Homo sapiens with 40 samples.

Results

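Albumin and other proteins that hepatocytes secrete into blood were followed at the RNA level in HepaRG cells, with 10 genes chosen by name: ALB, AFP, GC, TF, TTR, AHSG, RBP4, SERPINA1, AMBP and HPX. All 10 were found among the 56568 gene names of the deposited tables. HepaRG cells, a human liver line, differentiate in culture to give hepatocyte-like cells beside primitive biliary cells. Differentiated cells were kept from day 8 to day 14 in test medium with serum and DMSO, and RNA sequencing was then performed on 40 libraries. The medium held the solvent alone (Control), PCB 126 at 100 pM, 10 nM or 1 µM, glyphosate at 10 µg/L, 1 mg/L or 0.1 g/L, or Roundup at 10 µg/L, with 5 libraries in each of the 8 groups. PCB 126, a polychlorinated biphenyl of the dioxin-like kind, is a ligand of the aryl hydrocarbon receptor (AhR), and Roundup is a herbicide formulated with glyphosate. The same Control libraries serve both the PCB 126 and the herbicide comparisons. All cells come from 1 cell line, and nothing in the labels says that the libraries of a group came from separate cultures, so p-values measure the spread between these libraries.

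Most of the protein in plasma is made by hepatocytes, which pass it through the endoplasmic reticulum and release it into the circulation. ALB holds the osmotic pressure of plasma and carries fatty acids and many drugs, and AFP is its fetal counterpart, which is silenced in the liver after birth and returns in hepatocellular carcinoma. Abundant expression of these genes is a usual sign of a differentiated hepatocyte, and it depends on transcription factors such as HNF4A, CEBPA and the FOXA proteins. ALB, AFP and GC are members of 1 gene family on chromosome 4.

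In the deposited annotation (GRCh38), the named ALB transcripts spanned 73397114 to 73421412 on the plus strand of chromosome 4, and those of AFP began 9.73 kb further on, from 73431138 to 73456174 on the same strand. The main GC transcript lay on the minus strand of the same chromosome, from 71741693 to 71784362, and had 13 exons. RefSeq promoter windows (GRCh38.p14) matched 8 of the 10 genes, not GC and TTR. The 250 bases before the start are shown for ALB and AFP, which are neighbours with opposite levels here, for SERPINA1, which holds the same GTTAAT element, and for HPX, whose RNA fell at 1 µM PCB 126. The windows are chr4:73404037-73404286 (plus strand) for ALB, chr4:73435971-73436220 (plus) for AFP, chr14:94388603-94388852 (minus) for SERPINA1 and chr11:6440988-6441237 (minus) for HPX. Capitals mark every match, on either strand, to the TATA box (TATAAA), the CCAAT box (CCAAT), the element GTTAAT, a FOXA motif (TGTTTAC) or the AhR core (GCGTG).
ALB: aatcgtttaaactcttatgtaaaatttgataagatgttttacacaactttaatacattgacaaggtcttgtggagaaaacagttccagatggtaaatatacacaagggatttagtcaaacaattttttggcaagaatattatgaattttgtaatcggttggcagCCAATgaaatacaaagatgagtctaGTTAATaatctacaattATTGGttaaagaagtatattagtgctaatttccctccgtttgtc
AFP: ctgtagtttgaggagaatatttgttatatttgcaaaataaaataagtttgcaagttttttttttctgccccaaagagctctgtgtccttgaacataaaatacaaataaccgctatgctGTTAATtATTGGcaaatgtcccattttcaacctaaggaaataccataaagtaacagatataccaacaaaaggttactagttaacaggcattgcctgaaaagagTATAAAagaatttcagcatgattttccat
SERPINA1: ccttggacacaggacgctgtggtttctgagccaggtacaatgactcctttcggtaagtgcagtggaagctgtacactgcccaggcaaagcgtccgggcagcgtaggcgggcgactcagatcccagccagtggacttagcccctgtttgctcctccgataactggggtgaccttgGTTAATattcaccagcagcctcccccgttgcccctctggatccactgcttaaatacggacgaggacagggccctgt
HPX: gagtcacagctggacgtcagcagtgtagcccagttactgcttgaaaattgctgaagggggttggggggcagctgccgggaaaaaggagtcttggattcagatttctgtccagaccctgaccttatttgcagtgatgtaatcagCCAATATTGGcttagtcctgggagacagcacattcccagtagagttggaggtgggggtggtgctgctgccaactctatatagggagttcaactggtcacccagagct
The GTTAAT element was found in 3 of the 8 windows (ALB, AFP and SERPINA1), and 6.23% of the 35116 windows in the RefSeq table hold it. In ALB its first base lay 61 bases before the RefSeq start. All windows are set by RefSeq starts. The main deposited transcripts of ALB, SERPINA1, HPX, AMBP and AHSG begin inside their windows, and the TF window lies downstream of the deposited TF start. The CCAAT box was found in 5 of the 8 windows (ALB, AFP, TF, AMBP and HPX) and in 32.0% of all windows. The TATA box was found in AFP and RBP4 and in 10.7% of all windows. The AhR core, held by 32.2% of all windows, and the FOXA motif, held by 2.98%, matched none of the 8. None of these matches overlapped a match to another of the motifs. A match describes letters and is no evidence of binding, and a motif absent from 250 bases may lie elsewhere.

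The values are FPKM (fragment counts scaled by transcript length and library size), added up for all transcripts with the name of a gene. Libraries were not scaled to each other further, and their summed FPKM ran from 255292 to 513059. In the alignment summary of the study, 9 libraries have over 30% of read pairs aligned to several places: Control replicate 5, replicates 3 and 5 at 10 nM, replicates 1 and 5 at 1 µM PCB 126, and 4 herbicide libraries. ALB ranged from 2922 to 9413 FPKM in these 9 libraries and from 4925 to 17154 in the other 31, which include 2 libraries that the summary does not name. Library numbers in the labels form 5 runs with 1 library of every group in each, and replicates are numbered by run. Over all genes tested, the median log2 fold change at 1 µM PCB 126 was -0.26, so a gene that moved with the bulk of genes would also show a small negative value.

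The secreted proteins were among the most abundant RNAs of the Control cells. ALB averaged 11206 ± 1483 FPKM (SD, n = 5), which placed it at rank 5 of all gene names. SERPINA1, which encodes the elastase inhibitor alpha-1-antitrypsin, followed at 4210 ± 1631 FPKM. RBP4 (803 ± 159), AMBP (754 ± 129), GC (603 ± 132), TF (454 ± 109), TTR (361 ± 86.4) and HPX (239 ± 61.3) came next, and the ranges of neighbours in this order overlapped from RBP4 to HPX. AHSG stood lower at 40.2 ± 7.24 FPKM, below HPX in every Control library. AFP was at 0.353 ± 0.250 FPKM. FPKM is scaled by transcript length, so these levels can be compared between genes. The 10 genes together made up 4.52% ± 0.423 of the summed FPKM in Control libraries.

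**Figure D1:**
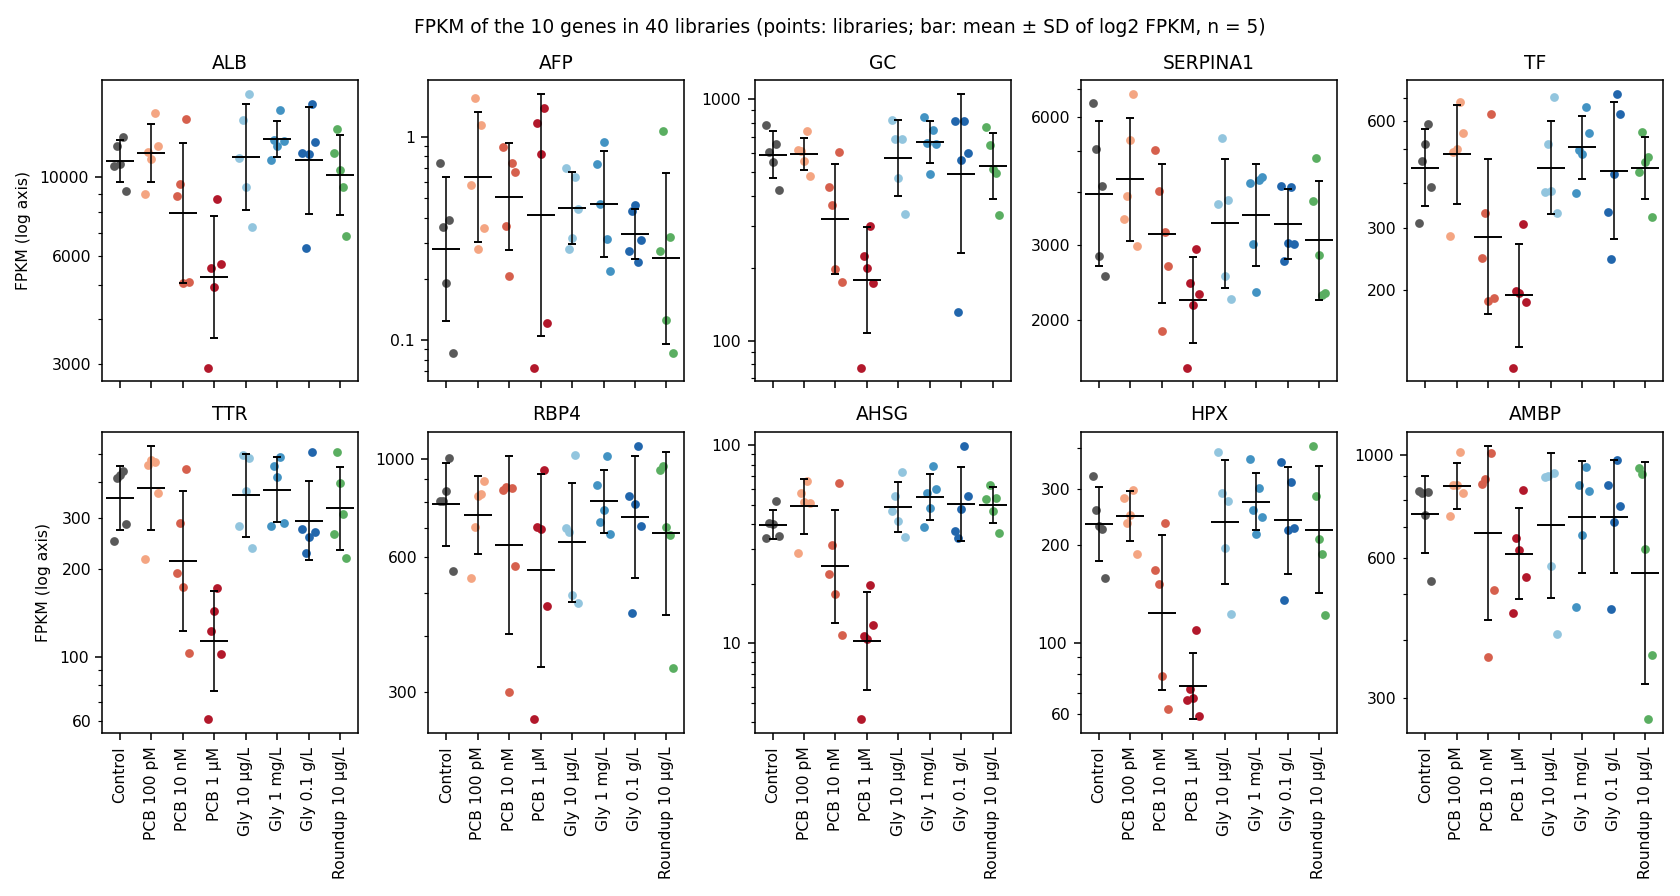
FPKM (log axis) of the 10 genes in 40 libraries, with 1 point per library and a bar for the mean ± SD of log2 FPKM in each group (n = 5). At 1 µM PCB 126, ALB, GC, TF, TTR, AHSG and HPX lie below every Control library, and the herbicide groups overlap Control for each gene.

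ALB RNA was lower at 1 µM PCB 126 in every library than in any Control library. Its FPKM in Control replicates 1 to 5 was 10770.5, 12241, 10883, 12989 and 9144. At 1 µM it was 2922, 5571, 4925, 8721 and 5713. The groups did not overlap, and the mean at 1 µM was 49.7% of the Control mean. The log2 fold change on log2(FPKM + 1) was -1.08 (SE 0.296, 95% interval -1.69 to -0.47). Its adjusted p of 0.0564 (limma, Benjamini-Hochberg over all genes tested) stayed above the threshold of 0.05. This fit leaves out the runs. ALB was called lower in 14 of 34 fits with other settings or libraries, among them the fit with the run as a block (limma, adjusted p = 0.0144). Whether the runs pair libraries was not settled. A trend over dose steps passed, at -0.38 per step (SE 0.0945, adjusted p = 0.0200), but not without replicate 1 at 1 µM, the lowest ALB library, when it was -0.31 (adjusted p = 0.0588). Against the Control library of its own run, ALB was lower at 1 µM in 5 of 5 runs, with log2 ratios of -1.88 to -0.57. As a share of the summed FPKM of the library, ALB was 2.74% ± 0.373 in Control (2.28 to 3.19) and 1.43% ± 0.493 at 1 µM (0.878 to 2.01), again without overlap.

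At the lower doses the ALB values overlapped Control. They were 8979, 11791, 11264, 15170 and 12266 FPKM at 100 pM, and 8853, 9571, 5041, 14631 and 5071 at 10 nM. The 10 nM libraries were split, with replicates 3 and 5 near the 1 µM values and replicate 4 above every Control library. Replicates 3 and 5 are those with many multiply aligned read pairs, whose part in this split was not tested. The log2 fold change was 0.08 (95% interval -0.53 to 0.69) at 100 pM and -0.49 (-1.09 to 0.12) at 10 nM.

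AFP stayed near the limit of what was measured in every group. Its FPKM in Control replicates 1 to 5 was 0.741, 0.360, 0.190, 0.388 and 0.0858, and at 1 µM PCB 126 it was 0.0729, 1.16, 0.827, 1.39 and 0.121. The highest and the lowest of these 10 values were both at 1 µM. The group means ran from 0.343 ± 0.0960 at 0.1 g/L glyphosate to 0.781 ± 0.545 at 100 pM. AFP did not reach the variance of FPKM required for the fit, so each exposed group was compared with Control by a 2-sided exact permutation test, and p ran from 0.167 at 100 pM to 1 for Roundup over the 7 comparisons, before any adjustment. The Control library with the lowest ALB held 9144 FPKM of it, while AFP reached at most 1.55 FPKM in any library. ALB was thus high, and AFP near 0, in all 8 groups.

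Of the carriers of vitamins and hormones, TTR and GC fell, and RBP4 did not pass the test. TTR, transthyretin, carries thyroxine and binds RBP4, the carrier of retinol. TTR was at 251, 411, 423, 436 and 286 FPKM in Control and at 61, 123, 144, 172 and 102 at 1 µM PCB 126. All 5 treated libraries lay below the lowest Control library. The log2 fold change was -1.62 (SE 0.342, adjusted p = 0.00797). RBP4 was at 805, 804, 845, 1002 and 560 FPKM in Control and at 260, 701, 697, 945 and 466 at 1 µM. These groups overlapped, and the log2 fold change of -0.49 (95% interval -1.16 to 0.18, adjusted p = 0.506) did not pass. Within a library, RBP4 over TTR was 1.95 to 3.21 in Control and 4.26 to 5.71 at 1 µM, a description without a test. GC, the vitamin D-binding protein, was at 783, 606, 552, 653 and 423 FPKM in Control and at 77.4, 225, 199.8, 298 and 173 at 1 µM. The GC values did not overlap either, and fell by 1.72 on the log2 scale (SE 0.336, adjusted p = 0.00437).

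Of the carriers of iron and heme, HPX fell and TF came close to the threshold. HPX, hemopexin, binds free heme with high affinity. It was at 327, 257, 229, 225 and 158 FPKM in Control and at 66.7, 72.0, 67.4, 109.8 and 59.4 at 1 µM PCB 126. The highest treated library was below the lowest Control library. HPX fell by 1.65 on the log2 scale (SE 0.304, adjusted p = 0.00273), the smallest p of the 9 genes tested. TF, transferrin, delivers iron to cells through the transferrin receptor. It was at 309, 464, 519, 589 and 391 FPKM in Control and at 120.3, 199, 196, 308.1 and 185 at 1 µM. The groups were separated by less than 1 FPKM, between Control replicate 1 (308.7) and replicate 4 at 1 µM (308.1). Its log2 fold change of -1.20 (SE 0.321) had an adjusted p of 0.0525 at 1 µM, while the trend over doses passed at -0.44 per step (adjusted p = 0.0151). At 1 µM, TF was called lower in 14 of 34 fits, among them the fit with the run as a block (limma, adjusted p = 0.00423). Without the libraries over the 30% limit, the trend for TF was -0.33 (adjusted p = 0.0894).

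AHSG, the mineral-binding protein fetuin-A, had the largest fold change of the 9 genes at 1 µM. It was at 34.0, 40.3, 40.1, 52.1 and 34.7 FPKM in Control and at 4.12, 10.9, 10.5, 19.6 and 12.3 at 1 µM. Every treated library was under the lowest Control library, and the mean at 1 µM was 28.5% of the Control mean. AHSG fell by 1.84 on the log2 scale (SE 0.370, adjusted p = 0.00573). The protease inhibitors did not pass the test. SERPINA1 was at 6498, 5049, 2823, 4137 and 2545 FPKM in Control and at 1545, 2439, 2173, 2934 and 2301 at 1 µM, with overlap, and its log2 fold change was -0.83 (95% interval -1.46 to -0.20, adjusted p = 0.206). Transcripts of its locus without a gene name were above 0 in 33 of 40 libraries. With them SERPINA1 averaged 4541 ± 1480 FPKM in Control and 2854 ± 826 at 1 µM, and the log2 fold change was -0.67. AMBP, the precursor of alpha-1-microglobulin and the trypsin inhibitor bikunin, was at 835, 827, 743, 830 and 534 FPKM in Control and at 456, 660.2, 623, 837 and 545 at 1 µM. Its log2 fold change of -0.28 (95% interval -0.83 to 0.26, adjusted p = 0.623) was close to the median of all genes. Within a library, AMBP over AHSG was 15.4 to 24.6 in Control and 42.7 to 111 at 1 µM, which describes the genes with the smallest and the largest difference and was not tested.

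At 1 µM PCB 126, 4 of the 9 genes in the fit were called lower (AHSG, GC, HPX and TTR) and none higher, against 1.22% of the 9755 genes tested that were called lower. The median log2 fold change was -1.20 over the 9 genes and -0.26 over all genes tested, and all 9 values were below 0. The values of 6 of the 9 genes lay below Control without overlap, against 1.64% of the genes tested. An F-test across the 4 groups called the same 4 genes, against 1.39% of all genes, and the trend over dose steps called 6 of 9 lower by adding ALB and TF, against 2.86%. The call of HPX held in every alternative fit of this comparison. Those of GC (adjusted p = 0.0733) and AHSG (0.134) were lost with the most abundant transcript in place of the sum, and those of AHSG (0.0526) and TTR (0.0592) without the variance filter, when 43478 genes were tested. Leaving out 1 library lost none of the 4 calls. ALB and TF were called as well without Control replicate 5, without replicate 3, 4 or 5 at 10 nM, or without replicate 4 at 1 µM, and TF also without Control replicate 1 or replicate 1 at 100 pM. Without the 5 libraries over the 30% limit, 5 of 9 were called: AHSG, GC, HPX, TTR and ALB (adjusted p = 0.0290, log2 fold change -0.91). In that fit 3.86% of the 8298 genes tested were called lower. In these bulk cultures, fewer hepatocyte-like cells and less RNA of these genes per cell cannot be told apart.

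**Figure D2:**
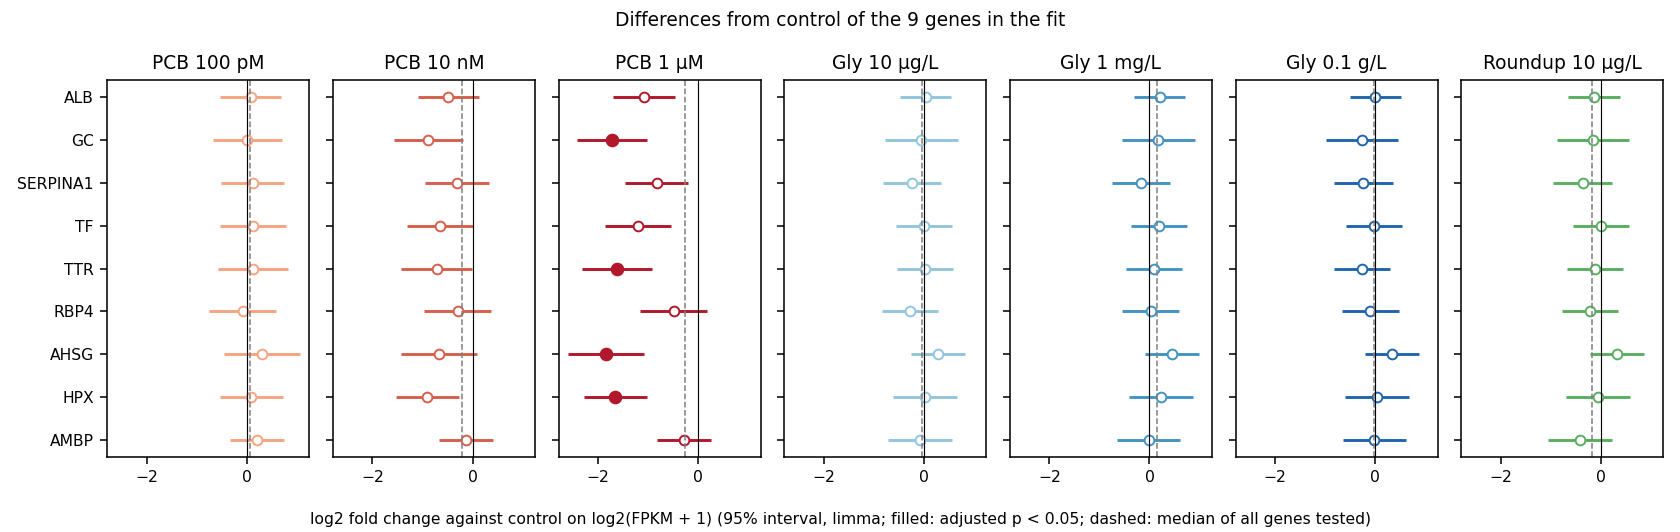
Log2 fold change against Control on log2(FPKM + 1) for 9 genes at each exposure, with 95% intervals from limma. Filled points have an adjusted p under 0.05, and the dashed line is the median of all genes tested. Only GC, TTR, AHSG and HPX at 1 µM PCB 126 are filled, and the herbicide intervals include 0.

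None of the 9 genes passed at the lower doses. At 100 pM, 0% of all genes tested were called lower, and the 9 log2 fold changes ran from -0.08 (RBP4) to 0.30 (AHSG). No gene of the whole table was called there in either direction (limma), 116 of 9755 had an unadjusted p under 0.05, and none of these was one of the 9. At 10 nM, 0.0615% of all genes were called lower. All 9 values were below 0, from -0.90 for HPX (SE 0.304, adjusted p = 0.516) to -0.13 for AMBP, and the median over all genes tested was -0.21. Of the 9 genes, 3 (HPX, GC and TTR) had an unadjusted p under 0.05 (limma), against 473 of all 9755 genes tested. The direction for AMBP turned positive under other scalings. No gene of the 9 was separated from Control at 10 nM, against 0.246% of the genes tested that lay below it without overlap. HPX was at 168, 151, 78.7, 234 and 62.5 FPKM and AHSG at 22.4, 31.2, 17.7, 64.5 and 11.1. For both genes replicates 3 and 5 were lowest and replicate 4 highest, the same split as for ALB.

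**Figure D3:**
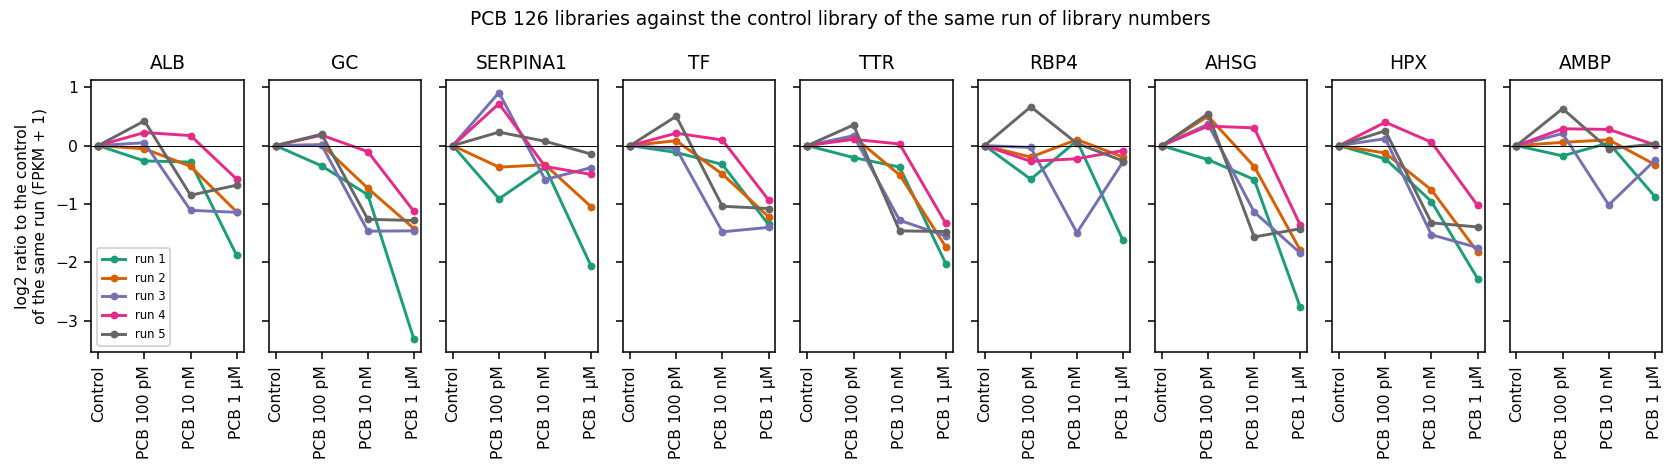
Log2 ratio of each PCB 126 library to the Control library of the same run of library numbers (FPKM + 1), with 1 line per run. At 1 µM the ratio is below 0 in 5 of 5 runs for 8 of the genes and in 3 of 5 for AMBP, while at 10 nM the runs spread apart.

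None of the 9 genes passed the test with glyphosate or Roundup. No gene of the whole table was called (limma, 0% of 9533 genes tested) across the herbicide groups, at any glyphosate dose, for Roundup, or for Roundup against glyphosate at 10 µg/L. Between 84 and 165 genes had an unadjusted p under 0.05 in single comparisons, and none of these was one of the 9. ALB averaged 11947 ± 3950 FPKM at 10 µg/L glyphosate, 12868 ± 1553 at 1 mg/L, 11669 ± 3500 at 0.1 g/L and 10422 ± 2545 with Roundup (n = 5 each). The log2 fold changes of ALB were 0.04 (95% interval -0.48 to 0.55), 0.20 (-0.31 to 0.72), 0.01 (-0.51 to 0.52) and -0.13 (-0.65 to 0.38), and their sign depended on the processing. AHSG had the largest positive value in each herbicide group, at 0.28, 0.46 (95% interval -0.08 to 1.00), 0.34 and 0.32, none of which passed. The largest negative value was that of AMBP with Roundup, -0.42 (95% interval -1.05 to 0.22), and it was 0.0057 without the libraries over the 30% limit, which include Roundup replicates 4 and 5, and -0.20 with unnamed transcripts of the locus, which raised replicate 4 from 269 to 574 FPKM. Roundup against glyphosate at 10 µg/L gave -0.34 for AMBP and -0.17 for ALB, both with an adjusted p of 0.974. Over the 20 herbicide libraries, TTR ranged from 220 to 507 FPKM, HPX from 122 to 407, TF from 244 to 717, RBP4 from 339 to 1069 and SERPINA1 from 2245 to 5361. The lowest GC value, 131 FPKM in replicate 2 at 0.1 g/L, a library over the 30% limit, was 335 when an assembled transcript of the same locus without a gene name was added.

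Assignment of reads to transcripts differed between libraries for some of these genes. ENST00000295897, with 15 exons, held 84.2% of the mean ALB signal. ENST00000509063 was above 0 in 6 libraries only and exceeded the first transcript in all 6, which were replicates 4 and 5 at 1 µM PCB 126, replicates 2 and 4 at 10 µg/L glyphosate, and 1 library at each of the other glyphosate doses. SERPINA1 was spread further, and its leading transcript, ENST00000393087, was the majority of the named signal in 13 of 40 libraries. The main transcripts of TF, RBP4, HPX, GC, TTR and AMBP were the majority of the named signal in 40 of 40, that of AHSG in 36 and that of AFP in 14. Sums over named transcripts were therefore used throughout. Unnamed transcripts of a locus are outside these sums, and in single libraries they held up to 60.8% of the signal for GC and 53.1% for AMBP.

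**Figure D4:**
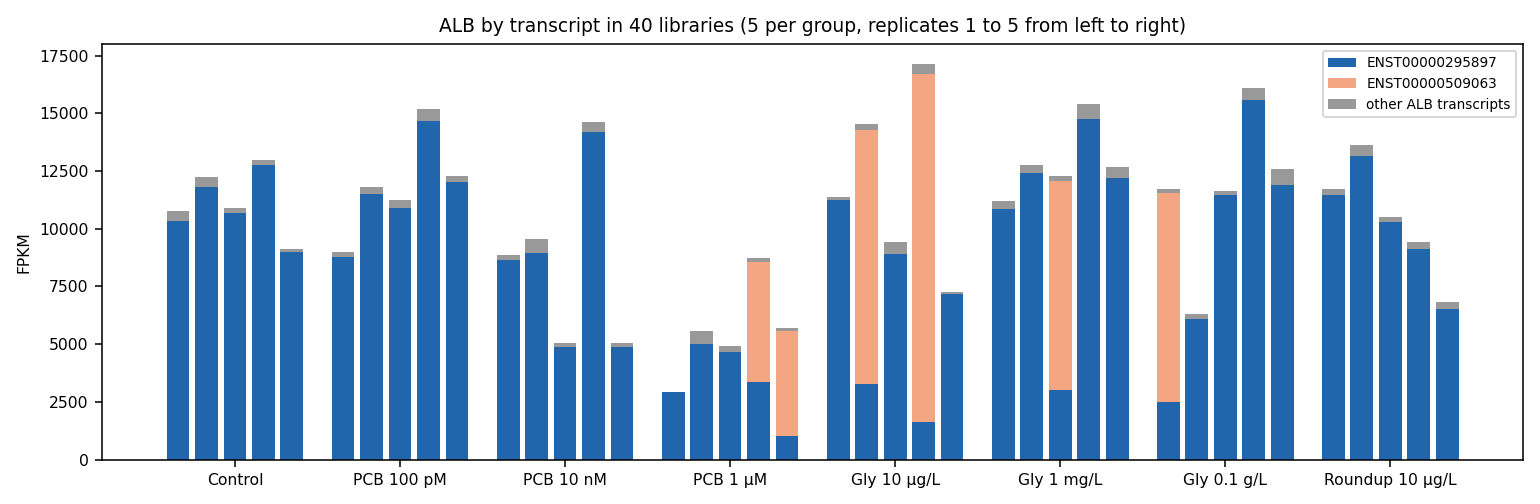
ALB FPKM by transcript in each of 40 libraries, stacked, in group order with replicates 1 to 5 from left to right. The second transcript appears in 6 libraries, where the first is low, and the height of the whole bar is the value used for ALB.

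The 9 genes varied together across libraries to unequal degrees. Over the 40 libraries, Pearson's r of log2(FPKM + 1) with ALB was 0.94 for TF, 0.93 for AHSG, 0.92 for GC, 0.90 for TTR and 0.87 for HPX, and it was 0.78 for RBP4, 0.71 for SERPINA1, 0.67 for AMBP and 0.14 for AFP. These libraries share groups, runs and unscaled values, so the coefficients are a description. Among 9259 other genes tested in both tables, the 5 most like ALB included PON1 (r = 0.98), the secreted paraoxonase, UGT2A3 (0.97), a glucuronosyltransferase, BAAT (0.96), which conjugates bile acids, and SERPINA7 (0.96), the thyroxine-binding globulin. For AFP the 5 highest included NABP1, HIPK2, LRIG1 and GPAT3, at 0.62 to 0.64.

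Other plasma proteins of hepatocytes were also lower at 1 µM PCB 126 in part. Of 21 such genes, 17 were in the fit, and 16 of these had a log2 fold change below 0. Their median was -1.07, against -0.26 over all genes tested. Of the 17, 7 were called lower and none higher. Over all 9755 genes tested at 1 µM, 1.22% were called lower and 63 genes higher. AFM, a further member of the albumin family, averaged 15.4 ± 2.79 FPKM in Control and 2.23 ± 2.80 at 1 µM (log2 fold change -2.82, adjusted p = 0.00641). SERPINC1, antithrombin, went from 27.5 ± 7.11 to 9.00 ± 3.88 FPKM (adjusted p = 0.0116). SERPINA7 (adjusted p = 0.0132) and ITIH2, an inter-alpha-trypsin inhibitor chain (0.0157), were also lower. Of 14 hepatocyte transcription factors, 12 were in the fit, with a list median of -0.29. Against 1.22% of all genes tested, 2 of the 12 were called lower. These were FOXA1, from 7.70 ± 1.75 to 2.88 ± 1.17 FPKM (adjusted p = 0.0213), and NR1H4, the bile acid receptor, from 8.38 ± 3.75 to 2.99 ± 0.927 (adjusted p = 0.0348). HNF4A was not called, at 19.5 ± 3.95 FPKM in Control and 27.0 ± 9.77 at 1 µM.

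The machinery that moves these proteins into the endoplasmic reticulum showed no call. All 22 genes were in the fit, none passed at 1 µM (limma) and the median was -0.31, close to that of all genes. SRP9, a part of the signal recognition particle, had a log2 fold change of -0.48 and SSR4, a translocon-associated protein, of -0.21. Of 7 receptors of the secreted proteins, 3 were in the fit and none was called, with LRP1 at -0.48 and the transferrin receptor TFRC at -0.28. Among 14 hepatocyte enzymes and membrane markers, 12 were in the fit, 8 of these had a log2 fold change below 0 and the median was -0.55. Of the 12, 3 were called lower and 1 higher, against 1.22% of all 9755 genes tested called lower and 63 called higher. Among the lower were SLCO1B1, an uptake transporter (adjusted p = 0.0108), and CPS1, the entry enzyme of the urea cycle (0.0385). TAT, tyrosine aminotransferase, rose from 0.628 ± 0.160 to 3.66 ± 1.34 FPKM (adjusted p = 0.00497).

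Markers of other cells and of the exposure were read beside these results. Of 9 biliary and progenitor markers, 4 were in the fit, none was called at 1 µM and the median was -0.78. Their summed level was 279 to 534 FPKM in Control and 164 to 284 at 1 µM, and KRT19 and CD24 were the most abundant, while EPCAM was near 0 in Control (0.0080 ± 0.018 FPKM) and at 0 at 1 µM. Fibroblast and stellate markers summed to 41.2 to 92.7 FPKM in Control and 51.0 to 190.4 at 1 µM. Of these 9, 6 were in the fit, with 3 log2 fold changes above 0 and 3 below, and COL1A2 was near 0 in both groups. COL3A1 was called lower, from 12.5 ± 3.63 to 0.576 ± 0.274 FPKM (adjusted p = 2.29e-05). LUM and DCN did not pass, with log2 fold changes of 1.03 (adjusted p = 0.180) and 1.02 (adjusted p = 0.0886). Macrophage and endothelial markers summed to 2.42 to 7.69 FPKM in Control and 3.28 to 4.87 at 1 µM. Of these 8, 1 was in the fit, with CD14 and CD68 the most abundant and CDH5 at 0 in Control and at 1 µM. The part of these other cells in the fall of the secreted proteins was not tested. Of 7 AhR-responsive genes, 6 were in the fit and 5 were called higher at 1 µM, against 63 of all 9755 genes tested. CYP1A1, a cytochrome P450 induced by this receptor, went from 2.33 ± 3.4 to 235 ± 108 FPKM and CYP1A2 from 0.982 ± 0.606 to 154 ± 75.8. TIPARP and ALDH3A1 were also among the 5. Of 13 mitochondrially encoded proteins, 11 were in the fit and none was called, with MT-CO1 and MT-CO3 the most abundant.

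**Figure D5:**
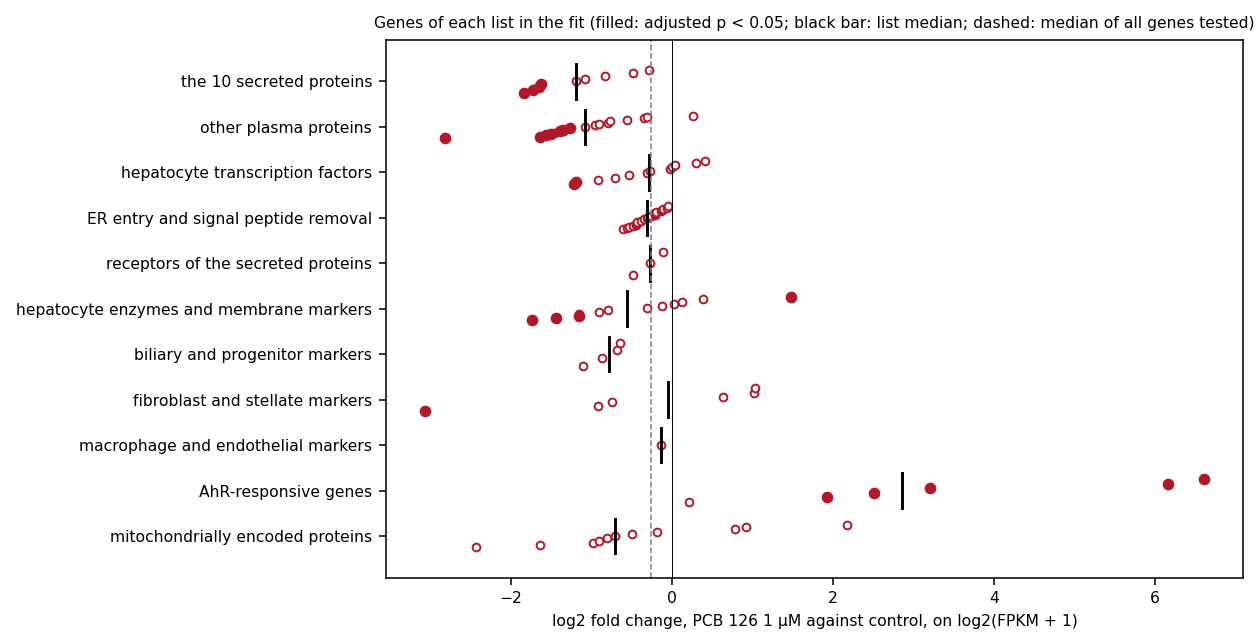
Log2 fold change at 1 µM PCB 126 against Control for each gene of each list in the fit, with filled points for an adjusted p under 0.05, a black bar for the list median and a dashed line for the median of all genes tested (-0.26). The secreted proteins (-1.20) and the other plasma proteins (-1.07) have the lowest medians of the 11 lists.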

How the data were processed

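The 40 libraries were described in 2 tables, 1 for PCB 126 (20 libraries) and 1 for the herbicides (25 libraries), with identical Control values. Per the labels and the methods, the authors depleted ribosomal RNA, aligned read pairs to GRCh38 with HISAT2, and assembled and quantified 234960 transcripts with StringTie. The deposited values are FPKM, neither pooled nor scaled between libraries. Deposited FPKM columns with a value below 0, classed here as a score, held 4 and 6 such values, which were set to 0. The tables give no read counts, so depth is unknown from them and no counting interval is given; 5 libraries per group limit the precision.

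FPKM was summed per gene name, and genes with a variance of FPKM above 1 were tested on log2(FPKM + 1), so fold changes of low genes are understated. All groups of a table entered 1 limma fit (3.58.1, R 4.3.3), with Benjamini-Hochberg adjustment over all genes tested and a threshold of 0.05. AFP was compared with exact permutation tests (scipy 1.17.1). The fit was tested on simulated data with changes of 2 and 3 on the log2 scale. At 1 µM PCB 126 (9755 genes), 94% and 98% of these were recovered, with false calls at 4.48%. At 0.1 g/L glyphosate (9533 genes), 95% and 100% were recovered, with false calls at 5.80%. The secreted proteins in the fit changed by -1.84 to -0.28 at 1 µM and by -0.26 to 0.34 at 0.1 g/L. Changes smaller than 2 were not simulated, so the recovery of changes of this size is unknown. The simulated noise was independent between genes, without the shifts that a real library shares across its genes. The simulation therefore cannot give the share of false calls in these unscaled libraries. Python 3.11.15 did the remaining steps.

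Members and gene lists were chosen with earlier results of these data known. Besides the 10 genes, at most 4 genes of each list were named, those past the threshold at 1 µM PCB 126 or in a herbicide comparison, smallest p first, or else the 2 most abundant in Control. Some genes that this rule names are not reported here. HNF4A, EPCAM, COL1A2, LUM, DCN and CDH5 were named after their values were seen. The alternatives were a pseudocount of 0.1, no filter or a mean FPKM of 1, quantile or 75th-percentile scaling, an ordinary model with Ballgown's library-size term, a replicate block, array weights, all 8 groups in 1 fit, the most abundant transcript, and leaving out libraries. Sums with unnamed transcripts of a locus, and 75th-percentile scaling with the block, were added after seeing the data.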

Additional observations from a re-analysis of the deposited data

Results flagged for a closer look

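In 3 of 80 sets of 5 libraries (10 genes in 8 groups), 1 library lay far from the other 4, where chance sets apart about 1 in 20. HPX at 1 µM PCB 126 was 109.8 FPKM in replicate 4, against 59.4 to 72.0 in the others, and was still below every Control library. TTR was 507 FPKM in replicate 4 at 0.1 g/L glyphosate, against 228 to 275, but with the unnamed transcripts of the locus replicates 3 and 5 were 385 and 412, and it no longer stood apart. AFP was 1.06 FPKM in replicate 2 of the Roundup group, against 0.0862 to 0.321.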

How the results depend on the processing

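The 9 genes were below Control at 1 µM PCB 126 in all 34 fits. HPX was called in 34, GC and TTR in 33, AHSG in 32, ALB and TF in 14 each (the reported fit not among them) and SERPINA1 in 2. For ALB the change ran from -1.87 with the most abundant transcript (limma, adjusted p = 0.00948) to -0.68 with quantiles (0.182). The call with the most abundant transcript is 1 of the 14, and a second transcript holds most of the ALB signal in replicates 4 and 5 at 1 µM. Of the 9 genes, 4 were called in the fit as reported. The number was 7 with 75th-percentile scaling, with or without the replicate block, and 2 without the variance filter, where 3.8%, 5.17% and 0.212% of all genes were called lower. It was 4 to 6 when 1 library was left out, a count given without the share of all genes. For the F-test these values were 7, 1 and 4 to 6. The 7 came beside 5.45% of all genes, or 7.28% with the block, and the 1 beside 0.207%. The trend gave 5 to 7 when 1 library was left out, also without that share. The cause was not tested, and several of these settings also changed how many genes were tested. The replicate block gave 6 at 1 µM, adding ALB (limma, adjusted p = 0.0144) and TF (0.00423), beside 2.81% of all genes called lower. Quantiles gave 5, array weights 6 and the most abundant transcript 3, beside 5.67%, 6.95% and 1.04% of all genes called lower. The correlation of same-numbered libraries with Control exceeded 0.1 in 0 to 4 of 5 runs. In each group 2 to 4 of 5 libraries correlated best with their own run, more than an even spread over the 5 runs would give. The labels do not describe the runs as batches, so the reported fit has no block. Whether the numbers pair libraries was not settled. Scaling moved the all-gene median at 1 µM from -0.26 to -0.12 (75th percentile) or -0.01 (quantiles), and the split of all calls from 63 higher and 119 lower to 532 and 553 with quantiles and to 454 and 376 with the library-size term. Array weights called 1 gene for Roundup, 4 for Roundup against glyphosate and 4 across the herbicide groups, beside 36.4%, 46.7% and 58.0% of all genes, but did not converge for that table; no other alternative, and no library left out, called any of the 9 there. At 10 nM ALB was 0.14 with quantiles, and AMBP was 0.012 with 75th-percentile scaling (with or without block), 0.12 with quantiles, 0.060 with the library-size term, 0.18 without libraries over the 30% limit and 0.14 with array weights. With the most abundant transcript ALB was -1.06, -0.21 and -0.44 at the rising glyphosate doses and 0.92 for Roundup against glyphosate; a second transcript holds most of the signal in 4 glyphosate libraries. ALB was -0.024 at 0.1 g/L with quantiles, and for Roundup 0.079 (75th percentile, with or without block), 0.074 (quantiles), 0.0054 (library-size term) and 0.025 (without libraries over the limit), under which AMBP was 0.0057 for Roundup and 0.0066 against glyphosate. With 1 library left out, ALB was -0.017 to 0.17 at 100 pM, -0.11 to 0.20 at 10 µg/L, -0.12 to 0.21 at 0.1 g/L and -0.24 to 0.011 for Roundup, and AMBP at 10 nM was -0.27 to 0.092. The trend lost ALB with quantiles (-0.19, adjusted p = 0.265), ALB (0.0598) and TF (0.0577) without the filter and AHSG (0.0876) with the most abundant transcript. Of 1337 alternative values of the log2 changes compared, 1260 kept direction and side of the threshold.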
